A study of Homo sapiens with 10 samples.

Results

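The 10 genes described here carry the control of the G1 phase, the part of the cell cycle in which a cell commits to copying its DNA: the cyclins CCND1, CCND3 and CCNE2, the cyclin-dependent kinases CDK4 and CDK6, the retinoblastoma gene RB1, and the kinase inhibitors CDKN1A, CDKN1B, CDKN2A and CDKN2B. They were taken by name from 61533 genes in the count tables. Gene symbols were matched by Ensembl identifier, and all 10 genes were found and passed the filter on low counts, among 16181 genes tested.

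The data were RNA-seq libraries of T24, an established line of human bladder cancer cells, and of T24R2, a cisplatin-resistant line derived from T24 by serial exposure to cisplatin, a platinum drug that damages DNA. Each line gave 5 libraries, all from day 3 of culture in RPMI medium with fetal bovine serum, and no other agent, genotype or time was compared. The T24 libraries held between 9257843 and 10247941 counts each, and the T24R2 libraries between 9591379 and 10840954. The study's methods keep T24R2 in medium with cisplatin, whereas the sample labels list a medium without the drug, so the line and recent drug exposure cannot be told apart. T24R2 is 1 derived line and not a set of independent resistant lines. Nothing in the labels says that the 5 libraries of a line came from separate cultures, so p-values measure the spread between these libraries, which may be technical.

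The lines were checked against markers of bladder epithelium and of other cell types. Of 11 urothelial markers, 5 passed the count filter and all 5 were lower in T24R2, where 26.5% of all tested genes were called lower by the test given below. The 11 markers summed to 2763 CPM (counts scaled to library size) in T24 and 1730 CPM in T24R2, most of it from the keratin KRT8. The defining markers differed among themselves. The uroplakins UPK1B and UPK3A and the keratin KRT20 had 3 counts or fewer in every library of both lines, whereas the uroplakin UPK2, named after its values were seen, was present and fell from 9.90 ± 0.960 to 2.74 ± 0.938 CPM (log2 fold change -1.86). GATA3, a urothelial transcription factor named likewise, had 22.1 CPM in T24 and 0.214 CPM in T24R2. Fibroblast markers summed to 9.94 CPM in T24 and 1.03 CPM in T24R2, with COL1A1 the most abundant and COL1A2, DCN and LUM at 3 counts or fewer in every library. Leukocyte markers summed to 0.451 and 0.985 CPM, with CD68 the most abundant in T24 (0.386 CPM), PTPRC (0.475 CPM) and CD68 (0.453 CPM) close together in T24R2, and CD3E and MS4A1 at 3 counts or fewer in every library. PTPRC had at most 1 count in any T24 library and 2 to 10 counts in the T24R2 libraries, too few to be tested. The endothelial markers summed to 244.8 CPM in T24 and 1.87 CPM in T24R2. In T24 nearly all of this was CDH5, an adhesion gene also named after its values were seen, at 239 CPM in T24 and 0.559 CPM in T24R2, since PECAM1 and VWF reached only 5.36 and 0.449 CPM in T24. The part of these shifts in the results below was not tested.

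In G1, D-type cyclins bind CDK4 or CDK6, and the active kinases phosphorylate the RB1 protein, which otherwise holds E2F transcription factors in check. E-type cyclins with CDK2 complete that step, and released E2F factors switch on genes of DNA synthesis. INK4 inhibitors (CDKN2A and CDKN2B) block CDK4 and CDK6 directly, whereas Cip/Kip inhibitors (CDKN1A, encoding p21, and CDKN1B, encoding p27) bind cyclin-kinase complexes, and CDKN1A is a classic gene of the DNA damage response. CDKN2A loss, CCND1 gain and RB1 loss are all known from urothelial cancers.

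Transcript levels were compared between the lines with edgeR's quasi-likelihood test, and a gene was called at a Benjamini-Hochberg adjusted p under 0.05 over all tested genes with an absolute log2 fold change over 0.5. CDKN1A and CCND1 fell in T24R2 and CDK6 rose. For 3 further genes (CCNE2, CDK4 and CDKN2A) the level in T24R2 was lower at the adjusted p but the difference was smaller than the fold minimum, and 4 (CCND3, RB1, CDKN1B and CDKN2B) passed neither criterion. The lines differed broadly. Of all tested genes, 51.4% were called, 24.9% as higher and 26.5% as lower in T24R2, so the 3 of 10 called here (30.0%) are read against a large background. Likewise 75.5% of tested genes passed the adjusted p alone, against 6 of the 10, and in 61.2% of tested genes the libraries of the lines did not overlap, again against 6 of the 10. The median log2 fold change of the 10 genes was -0.11 and that of all tested genes 0.01. In cell populations such as these, fewer cells of a kind and less RNA per cell cannot be told apart.

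**Figure D1:**
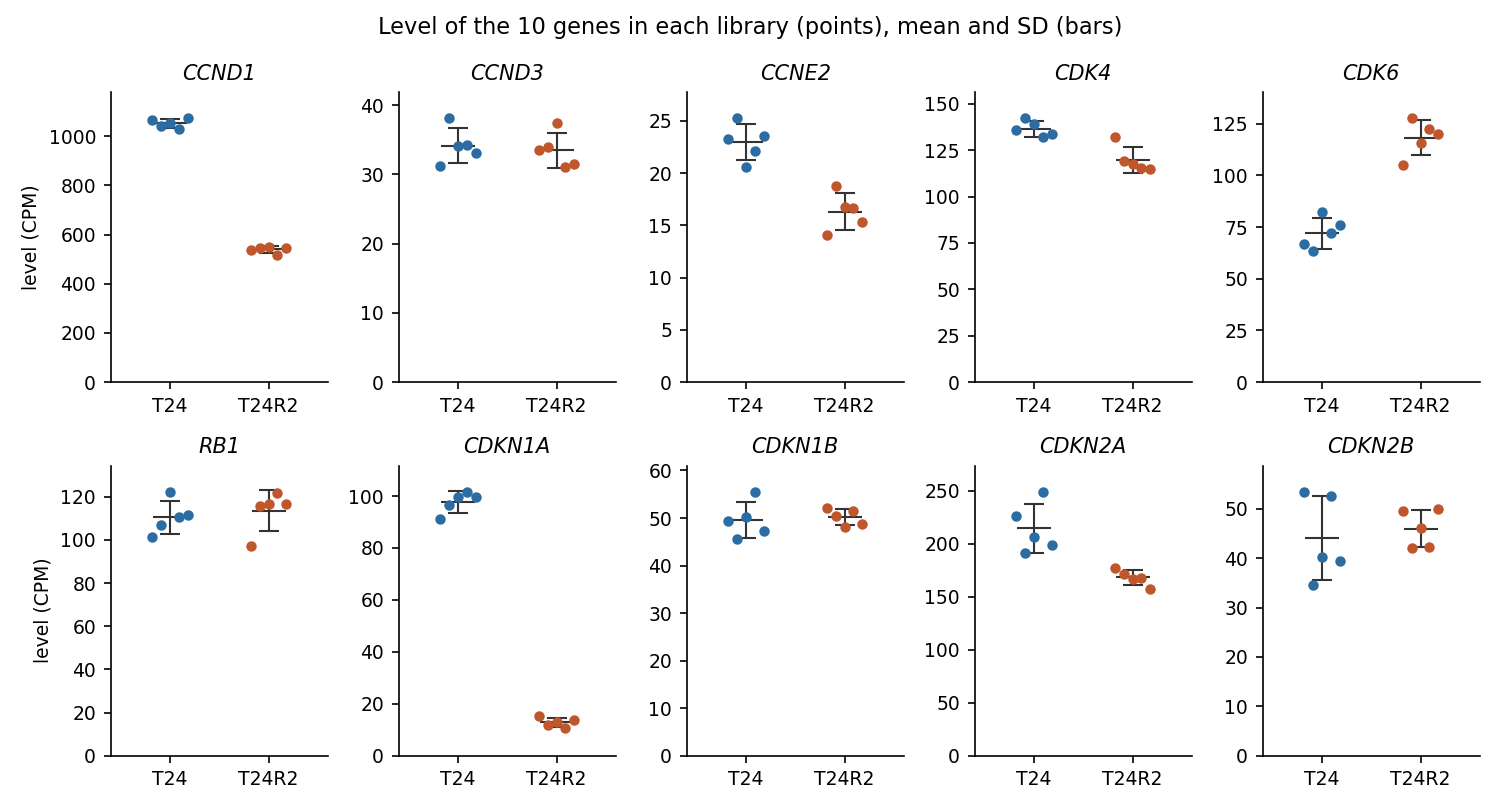
Level of each of the 10 genes in CPM, on its own axis from 0, for 5 T24 and 5 T24R2 libraries (points, replicates 1 to 5 from left to right) with the mean and SD (bars). CDKN1A (91.1 to 101.6 CPM against 10.8 to 15.3 CPM), CCND1 and CDK6 separate the lines widely, whereas CCND3, RB1, CDKN1B and CDKN2B overlap.

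CCND1, the cyclin that links growth factor signals to CDK4 and CDK6, lies on the plus strand of chromosome 11 (ENSG00000110092.4, chr11:69641156-69654474, GRCh38). Its level was 1064, 1042, 1053, 1029 and 1072 CPM in the T24 libraries and 538, 544, 551, 518 and 546 CPM in the T24R2 libraries. Every T24R2 library was far below every T24 library, and the libraries of each line lay close together. The mean was 1052 ± 17.1 CPM in T24 and fell to 539 ± 12.8 CPM in T24R2 (± SD over 5 libraries, here and below). Its log2 fold change was -0.96 (SE 0.039, adjusted p = 7.3e-24, edgeR). T24R2 thus held 51.3% of the T24 level, and CCND1 nevertheless remained the most abundant of the 10 genes per length in both lines. Exons of LTO1 on the opposite strand cover 10.4% of the CCND1 exon bases, and LTO1 also fell, from 254.8 to 153 CPM (log2 fold change -0.73). With every count of LTO1 taken off, the CCND1 log2 fold change was -1.05. Such overlaps were checked for each gene because the library kit is not described as marking strand, in which case reads of genes that overlap on opposite strands cannot be told apart.

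CCND3, a D-type cyclin with a main role in lymphoid cells (ENSG00000112576.13, chr6:41934934-42050357, minus strand), was far less abundant and its libraries overlapped. It had 31.2, 38.1, 34.1, 34.2 and 33.1 CPM in T24 and 33.5, 33.9, 37.4, 31.0 and 31.6 CPM in T24R2. The log2 fold change was -0.03, with a 95% interval of -0.18 to 0.13 (adjusted p = 0.749, edgeR). It was 0.14 without scaling beyond library size and 0.05 with upper-quartile scaling. Those settings also moved the median of all tested genes, from 0.015 to 0.177 and to 0.088. An opposite-strand gene, ENSG00000223946, covers 0.417% of the exon bases with 0.1 counts per library on average, and taking them off left -0.03. CCND2, the remaining D-type cyclin, had 3 counts or fewer in every library.

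CCNE2, an E-type cyclin that activates CDK2 (ENSG00000175305.18, chr8:94879770-94896678, minus strand), had 23.3, 25.3, 20.6, 22.2 and 23.6 CPM in T24 and 14.04, 18.8, 16.8, 16.7 and 15.3 CPM in T24R2. All T24R2 libraries were below all T24 libraries. The log2 fold change was -0.49 (SE 0.096, adjusted p = 2e-05, edgeR), just inside the fold minimum. Without T24 replicate 3, T24 replicate 4 or T24R2 replicate 2 it was -0.53, -0.51 and -0.54, and the gene was then called lower. INTS8, a subunit of the Integrator complex, overlaps 37.0% of the CCNE2 exon bases from the opposite strand and had more counts (697 against 196 on average over the 10 libraries). INTS8 had the same log2 fold change, -0.49 (SE 0.058), and because its counts exceed those of CCNE2 they could not be taken off, so the CCNE2 value cannot be told apart from that of INTS8.

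The kinase pair did not move together. CDK6 (ENSG00000105810.10, chr7:92604921-92836573, minus strand) was the only one of the 10 genes called higher. It had 66.6, 63.4, 82.2, 72.0 and 75.9 CPM in T24 and 105.1, 128, 116, 123 and 120.1 CPM in T24R2. The lowest T24R2 library, replicate 1, was still above the highest T24 library. The mean rose from 72.0 ± 7.43 to 118 ± 8.48 CPM, 1.64-fold, with a log2 fold change of 0.72 (SE 0.060, adjusted p = 1.2e-13, edgeR). CDK6-AS1 on the opposite strand covers 0.703% of the exon bases and taking its counts off left 0.71.

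CDK4 (ENSG00000135446.17, chr12:57747727-57756013, minus strand) had 136, 142, 139, 132 and 134 CPM in T24 and 132, 119, 118, 116 and 115 CPM in T24R2. The lines met at T24R2 replicate 1, whose 131.9 CPM lay just under the lowest T24 library at 132.0 CPM. The log2 fold change was -0.19 (SE 0.049, adjusted p = 0.00072, edgeR), under the fold minimum. TSPAN31, a tetraspanin gene, overlaps 44.2% of the CDK4 exon bases from the opposite strand and had 87.0 CPM in T24 and 67.1 CPM in T24R2 (log2 fold change -0.38). With every count of TSPAN31 taken off, also those outside the overlap, the CDK4 log2 fold change was 0.10 (SE 0.080, adjusted p = 0.28, edgeR). Since reads of CDK4 and TSPAN31 cannot be told apart there, these data do not fix a direction for CDK4. Without scaling beyond library size the CDK4 value was -0.02, but that setting also moved the median of all tested genes from 0.015 to 0.177.

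The promoters of CDK6 and CDKN1A are shown because these genes had the only rise and the largest fall of the 10. The windows are RefSeq sequence of build GRCh38.p14, from 250 bases before to 50 bases after an annotated start, printed 5′ to 3′ on the strand of the gene. Capitals mark each GC box, the letters GGGCGG on either strand (read as CCGCCC where the match is on the other strand), a search added after the data were seen. The CDK6 window, at the outermost of its RefSeq starts, is chr7:92836524-92836823 on the minus strand and the CDKN1A window chr6:36678464-36678763 on the plus strand, at a start inside the annotated gene.
CDK6: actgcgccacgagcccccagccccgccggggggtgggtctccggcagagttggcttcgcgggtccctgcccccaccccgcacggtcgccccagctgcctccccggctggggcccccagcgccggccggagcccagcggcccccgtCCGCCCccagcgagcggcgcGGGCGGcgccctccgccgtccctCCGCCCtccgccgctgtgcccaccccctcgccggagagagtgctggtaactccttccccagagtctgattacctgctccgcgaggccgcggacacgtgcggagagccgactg
CDKN1A: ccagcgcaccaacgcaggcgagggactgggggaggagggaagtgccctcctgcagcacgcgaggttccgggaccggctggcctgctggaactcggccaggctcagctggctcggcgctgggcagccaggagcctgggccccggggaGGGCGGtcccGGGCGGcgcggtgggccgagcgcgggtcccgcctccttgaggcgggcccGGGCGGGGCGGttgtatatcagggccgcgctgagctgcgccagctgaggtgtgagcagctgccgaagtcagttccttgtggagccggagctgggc
The CDK6 window shown held 3 GC boxes with a GC content of 78.0%, a second CDK6 window at chr7:92833910-92834209 held 0 with a GC content of 68.7%, and the CDKN1A window held 4, of which the last pair overlap by 1 base, with a GC content of 74.3%. RefSeq gave 12 such windows for 8 of the 10 genes, all but CCND1 and CCNE2, and the RB1 window lies at a start inside the gene (chr13:48476200-48476499). A GC box was in 8 of the 12, and in 45.0% of all 35116 promoter windows in the table. The E2F letters TTTCCCGC, TTTGGCGC, TTTCGCGC and TTTGCCGC, searched on both strands, were in 0 of the 12 windows and in 3.31% of all windows. These are matches of letters in short windows and not measured binding sites.

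RB1, the brake on which the kinases act (ENSG00000139687.16, chr13:48303744-48599436, plus strand), had 102, 107, 122, 111 and 112 CPM in T24 and 97.0, 116, 117, 122 and 117 CPM in T24R2. The lines overlapped, with T24R2 replicate 1 the lowest of all 10 libraries. The log2 fold change was 0.04 with a 95% interval of -0.07 to 0.15 (adjusted p = 0.533, edgeR), and no exon of another gene overlaps RB1. Without scaling beyond library size the log2 fold change was 0.20 (adjusted p = 0.0016), still under the fold minimum, but that setting also moved the median of all tested genes from 0.01 to 0.18. CDKN1B and CDKN2B, below, then likewise passed the adjusted p but not the fold minimum, at 0.18 (adjusted p = 0.0122) and 0.22 (adjusted p = 0.0215).

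CDKN1A, which encodes the inhibitor p21 (ENSG00000124762.14, chr6:36676460-36687337, plus strand), showed by far the largest difference of the 10. It had 91.1, 96.6, 99.5, 101.6 and 99.8 CPM in T24 and 15.3, 11.6, 12.96, 10.8 and 13.6 CPM in T24R2. All 5 T24R2 libraries lay far below T24, and relative to their mean they were more spread (a coefficient of variation of 13.7%, against 4.21% in T24), resting on 121 to 167 counts each, against 871 to 945 counts in T24. The mean fell from 97.7 ± 4.11 to 12.9 ± 1.76 CPM, a 7.61-fold decrease that left 13.2% of the T24 level. The log2 fold change was -2.93 (SE 0.075, adjusted p = 1.4e-30, edgeR), and the exact two-sided permutation test gave p = 0.00794, the smallest that 5 against 5 libraries can give. The opposite-strand RNA DINOL covers 4.87% of the exon bases with 0.7 counts per library on average, and taking them off did not alter the value at this precision (-2.93).

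CDKN1B, which encodes p27 (ENSG00000111276.12, chr12:12685498-12722369, plus strand), did not follow CDKN1A. It had 49.4, 45.7, 50.3, 55.5 and 47.3 CPM in T24 and 52.1, 50.4, 48.1, 51.4 and 48.8 CPM in T24R2. All T24R2 libraries lay within the T24 range. The log2 fold change was 0.02 with a 95% interval of -0.11 to 0.14 (adjusted p = 0.831, edgeR), and no opposite-strand exon overlaps the gene.

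**Figure D2:**
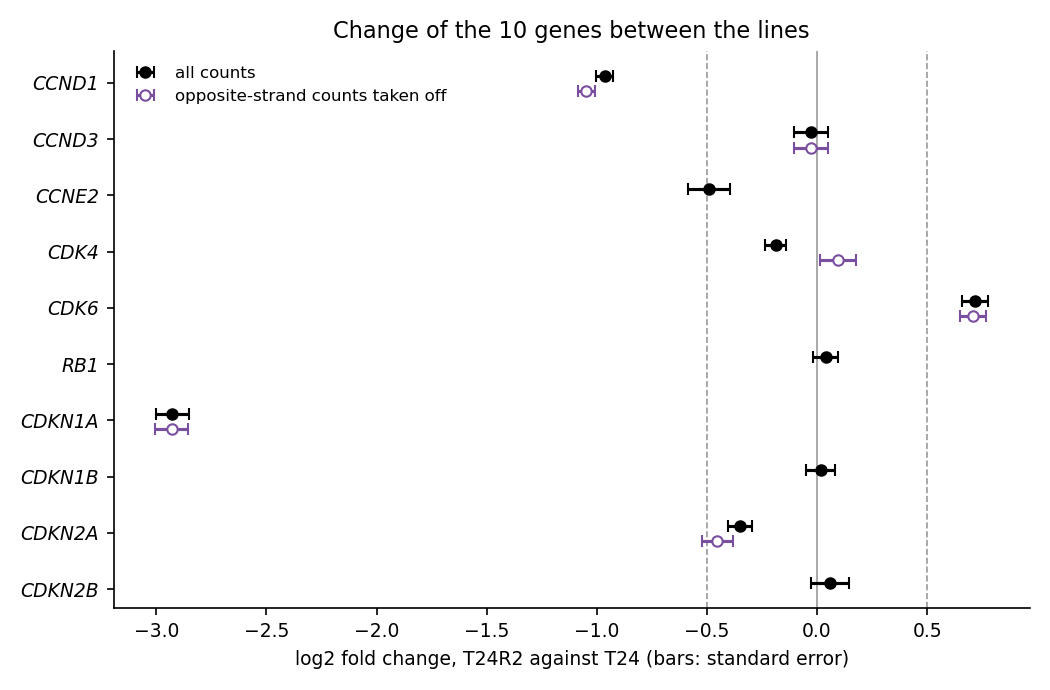
Log2 fold change of each gene, T24R2 against T24, with its standard error from edgeR (black), and again after all counts of genes that overlap on the opposite strand were taken off (open symbols, drawn only where an overlapping gene has counts and could be taken off, so not for CCNE2). Dashed lines mark the fold minimum of 0.5, and CDK4 moves from -0.19 to 0.10 while CDKN1A, CCND1 and CDK6 keep their sides.

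The INK4 pair lies side by side on chromosome 9. CDKN2A (ENSG00000147889.18, chr9:21967752-21995301, minus strand) encodes p16INK4a and, from another start and reading frame, p14ARF, and gene counts pool both. It had 226, 192, 206, 249 and 199 CPM in T24 and 178, 171, 167, 168 and 157 CPM in T24R2. The lines did not overlap, and the T24 libraries were more spread. The mean was 214 ± 23.2 CPM in T24 and 168 ± 7.35 CPM in T24R2, 78.5% of T24, with a log2 fold change of -0.35 (SE 0.054, adjusted p = 3.2e-07, edgeR), under the fold minimum. The antisense gene CDKN2B-AS1 overlaps 15.3% of the exon bases and had 116 CPM in T24 and 96.5 CPM in T24R2. With its counts taken off, the log2 fold change was -0.45, still under the fold minimum.

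CDKN2B, which encodes p15INK4b (ENSG00000147883.12, chr9:22002903-22009305, minus strand), had 53.5, 34.5, 40.3, 52.6 and 39.4 CPM in T24 and 49.6, 42.1, 46.2, 42.2 and 49.95 CPM in T24R2. All T24R2 libraries lay within the wide T24 range, and the log2 fold change was 0.06 with a 95% interval of -0.12 to 0.24 (adjusted p = 0.538, edgeR). No exon of another gene overlaps it. T24 replicates 1 and 4 were the highest T24 libraries in both INK4 genes, at 106% and 116% of the line mean for CDKN2A and 121% and 119% for CDKN2B. The same libraries were highest for CDKN2B-AS1, at 110% and 114%.

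Shares within each class were computed from levels per kilobase of exon, to set genes of different length side by side. The length is the union of all annotated exons, 2996 bases for CDKN1A and 9255 for CDKN1B, and the transcripts present may be shorter. The size of a share therefore depends on this length. Without length scaling, CDKN1A and CDKN1B had 97.7 and 49.6 CPM in T24 and 12.9 and 50.15 CPM in T24R2. CDKN1A made up 85.9% ± 0.845 of the Cip/Kip pair (CDKN1A and CDKN1B) in T24 and 44.0% ± 3.45 in T24R2, so p27 transcripts outnumbered p21 transcripts per length in every T24R2 library and in none of T24. CDK6 made up 11.8% ± 1.17 of the CDK4 and CDK6 level in T24 and 20.02% ± 1.89 in T24R2. With opposite-strand counts taken off, a check chosen after seeing the data, the CDK6 share was 26.9% ± 3.17 and 35.9% ± 3.64 (exact permutation p = 0.0159). CCND1 was 97.4% ± 0.215 of the D-type cyclins in T24 and 95.1% ± 0.283 in T24R2.

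Among the E-type cyclins, CCNE2 held 67.1% ± 5.79 of the level in T24 and 44.0% ± 2.32 in T24R2, with the overlap of INTS8 included. CCNE1 rose from 6.42 ± 1.81 to 11.6 ± 1.19 CPM (log2 fold change 0.86, adjusted p = 4.5e-06, edgeR). CDKN2A, whose counts pool p16INK4a and p14ARF, held 83.5% ± 1.41 of the INK4 pair in T24 and 79.0% ± 1.70 in T24R2. With opposite-strand counts taken off it held 69.8% ± 2.50 and 61.5% ± 3.78. In each of the 5 shares the libraries of the lines did not overlap, and the exact two-sided permutation test gave p = 0.00794, also after adjustment over the 5 shares (n = 5 each).

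**Figure D3:**
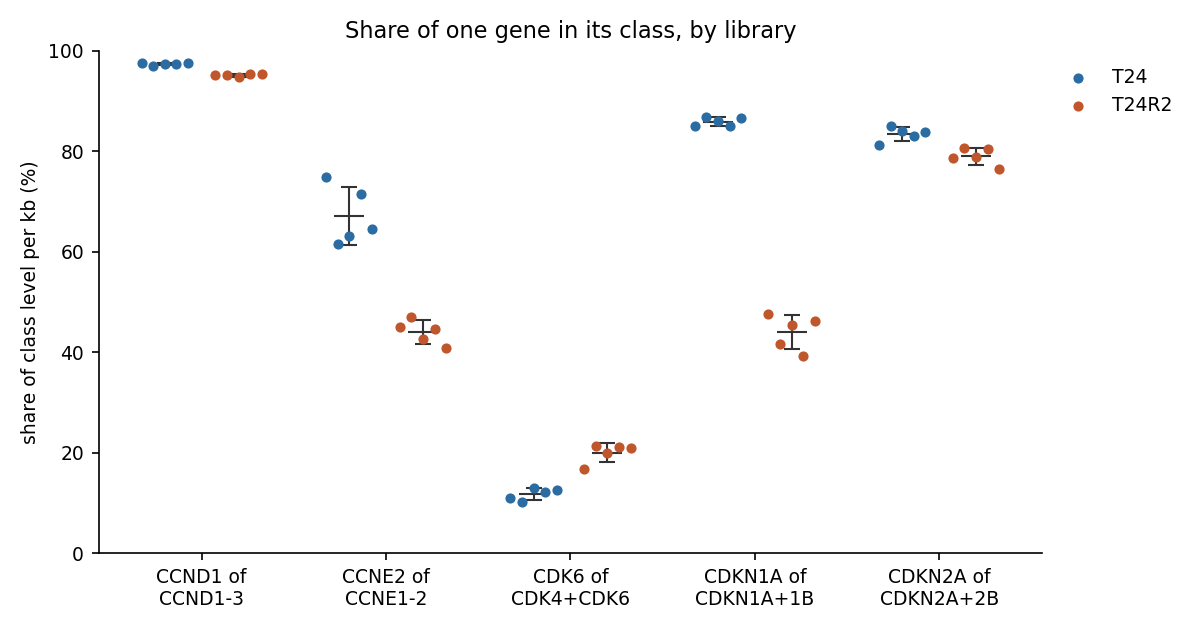
Share in percent of 1 gene in the summed level per kilobase of its class, for each T24 and T24R2 library (points) with mean and SD (bars). The widest gap is the share of CDKN1A in CDKN1A and CDKN1B, 85.0% to 86.7% in T24 against 39.3% to 47.6% in T24R2.

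The order of the 10 genes by level per kilobase changed at a few places. In T24, CCND1 led at 221 CPM per kb, followed by CDKN2A at 55.2, CDK4 at 44.1, CDKN1A at 32.6, RB1 at 17.2 and CDKN2B at 11.0 CPM per kb. CCND3, CDK6, CDKN1B and CCNE2 followed at 5.92, 5.89, 5.36 and 5.22 CPM per kb, and neighbours among these 4 overlapped. In T24R2, CCND1 led at 113 CPM per kb, and CDKN2A at 43.3 and CDK4 at 38.7 CPM per kb overlapped. RB1, CDKN2B and CDK6 followed at 17.7, 11.5 and 9.66 CPM per kb, each apart from the next. CCND3 and CDKN1B overlapped at 5.81 and 5.42 CPM per kb, as did CDKN1A and CCNE2 at 4.29 and 3.71 CPM per kb. CDKN1A thus moved from place 4 to place 9 and CDK6 from place 8 to place 6. Levels of CDK4, CCNE2, CDKN2A and CCND1 include the opposite-strand overlaps given above.

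**Figure D4:**
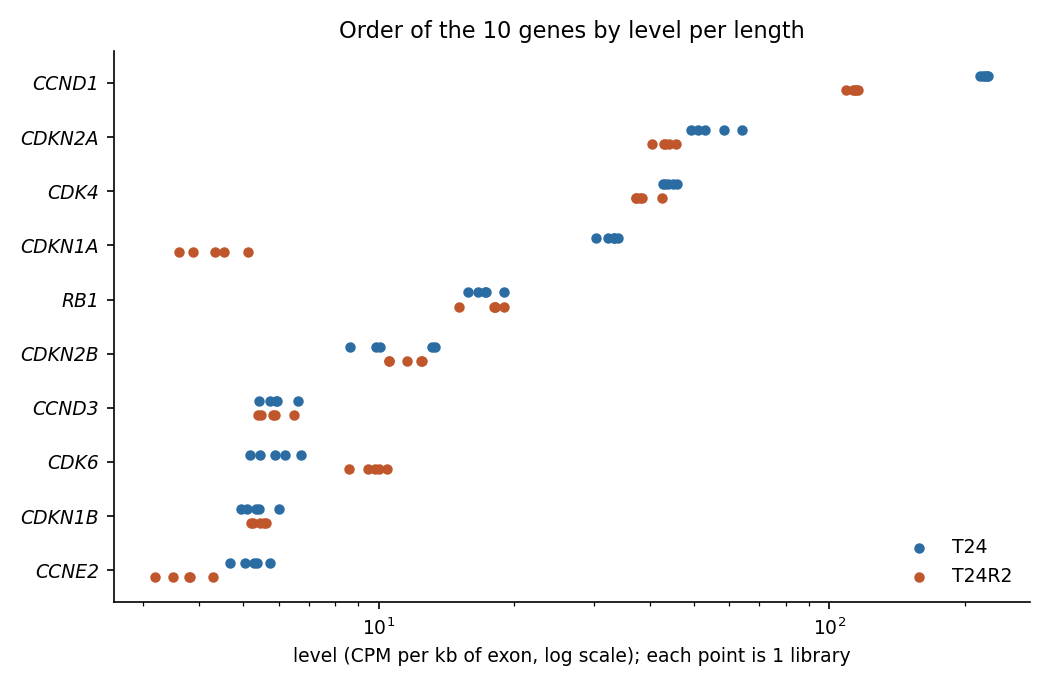
Level per kilobase of exon (CPM per kb, log scale) of each gene in each T24 and T24R2 library (points), genes ordered by their T24 mean. CCND1 stands above all others in both lines, and CDKN1A drops from 32.6 to 4.29 CPM per kb.

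The profiles of the 3 genes with the largest fold changes were compared with 85 listed genes of the cell cycle and the DNA damage response, by the mean absolute difference of centred log2 CPM over the 10 libraries. This is a description without a test, and the difference between lines dominates it. Nearest to CDKN1A were PHLDA3 (0.24), BTG2 (0.55) and CDK1 (0.60). Nearest to CCND1 were CCNB1 (0.04), BUB1 (0.05) and AMBRA1 (0.07), and nearest to CDK6 were E2F3 (0.11), TYMS (0.12) and XPC (0.12).

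The rest of the G1 machinery is given by lists of other genes, whose counts are read against the 24.9% of all tested genes called higher and the 26.5% called lower, with a median log2 fold change of 0.01. Among other G1 cyclins, their kinase and its activators, 6 of 7 genes were tested, of which 2 rose and 1 fell (median log2 fold change -0.01). CDK2, the partner of E-type cyclins, fell from 93.5 ± 7.86 to 51.8 ± 4.31 CPM (log2 fold change -0.85), and CCNH, a subunit of the kinase that activates CDKs, rose from 66.9 ± 3.93 to 119 ± 5.99 CPM (0.83). The third was CCNE1, above. CDK2 and CCNH have opposite-strand genes over more than 10% of their exon bases. Of the other CDK inhibitors, 0 of 3 were called by edgeR, by limma-voom or by DESeq2 (median 0.06), and all 3 are named since none was called. They had log2 fold changes of 0.33 for CDKN1C, 0.06 for CDKN2C and -0.42 for CDKN2D (adjusted p = 0.00173, edgeR, under the fold minimum). At an unadjusted edgeR p under 0.05, CDKN2D was lower and 0 of the 3 were higher. The libraries of the lines did not overlap for CDKN1C, at 5.00 ± 0.640 CPM in T24 and 6.31 ± 0.826 CPM in T24R2. Its exact two-sided permutation test gave p = 0.00794, whereas edgeR gave an adjusted p of 0.0691.

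Among RB relatives and E2F and DP factors, 12 genes were tested, of which 2 rose and 3 fell (median -0.13). TFDP1, the DNA-binding partner of E2F factors, fell from 180.0 ± 14.5 to 68.0 ± 3.02 CPM (log2 fold change -1.40), and the repressor E2F7 fell from 136 ± 10.6 to 52.1 ± 5.89 CPM (-1.38). E2F3, an activating E2F factor, rose from 22.3 ± 1.61 to 36.9 ± 3.18 CPM (0.73). Without T24 replicate 2 or without T24R2 replicate 1, 1 gene of the list rose, and without scaling beyond library size 4 did.

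Of 11 ubiquitin ligase parts that act on G1 cyclins or on p27, 2 rose and 1 fell (median 0.34). CUL1, the scaffold of SCF ligases, rose from 49.9 ± 3.82 to 109 ± 7.87 CPM (log2 fold change 1.12), and more than 10% of its exon bases lie under an opposite-strand gene. AMBRA1, which directs the degradation of D-type cyclins, fell from 49.6 ± 1.83 to 26.99 ± 1.59 CPM (-0.88). FBXO4 rose from 10.3 ± 0.863 to 15.1 ± 2.17 CPM (0.55), but without T24R2 replicate 2 its value was 0.48, leaving 1 gene of the list called higher. Without scaling beyond library size, 6 were.

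Of 22 E2F target genes of the step into S phase, 2 rose, 6 fell and 14 were not called (median -0.11), where 24.9% of all tested genes rose and 26.5% fell, so the falls were near the background share. TK1, thymidine kinase, fell from 252.1 ± 18.5 to 90.9 ± 3.82 CPM (log2 fold change -1.47), and RRM1, the large subunit of ribonucleotide reductase, fell from 312 ± 17.4 to 137 ± 11.3 CPM (-1.19). MCM7, a subunit of the replicative helicase, rose from 267 ± 14.1 to 532 ± 12.5 CPM (1.00). The counts depended on scaling, with 5 higher and 5 lower without scaling beyond library size and 4 higher with upper-quartile scaling. Leaving out single libraries gave 5 to 9 lower genes, with 9 reached without T24 replicate 4. Of 8 mitotic and proliferation genes, 6 fell and 0 rose by edgeR, limma-voom or DESeq2 (median -0.91). At an unadjusted edgeR p under 0.05, 0 of the 8 were higher. The background shares were 26.5% lower and 24.9% higher. CDK1, the mitotic kinase, fell from 186 ± 3.15 to 55.7 ± 2.57 CPM (-1.74), MKI67, which encodes the Ki-67 antigen, from 737 ± 27.9 to 319 ± 17.99 CPM (-1.21), and the mitotic kinase AURKA from 227 ± 6.96 to 99.7 ± 4.62 CPM (-1.19).

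**Figure D5:**
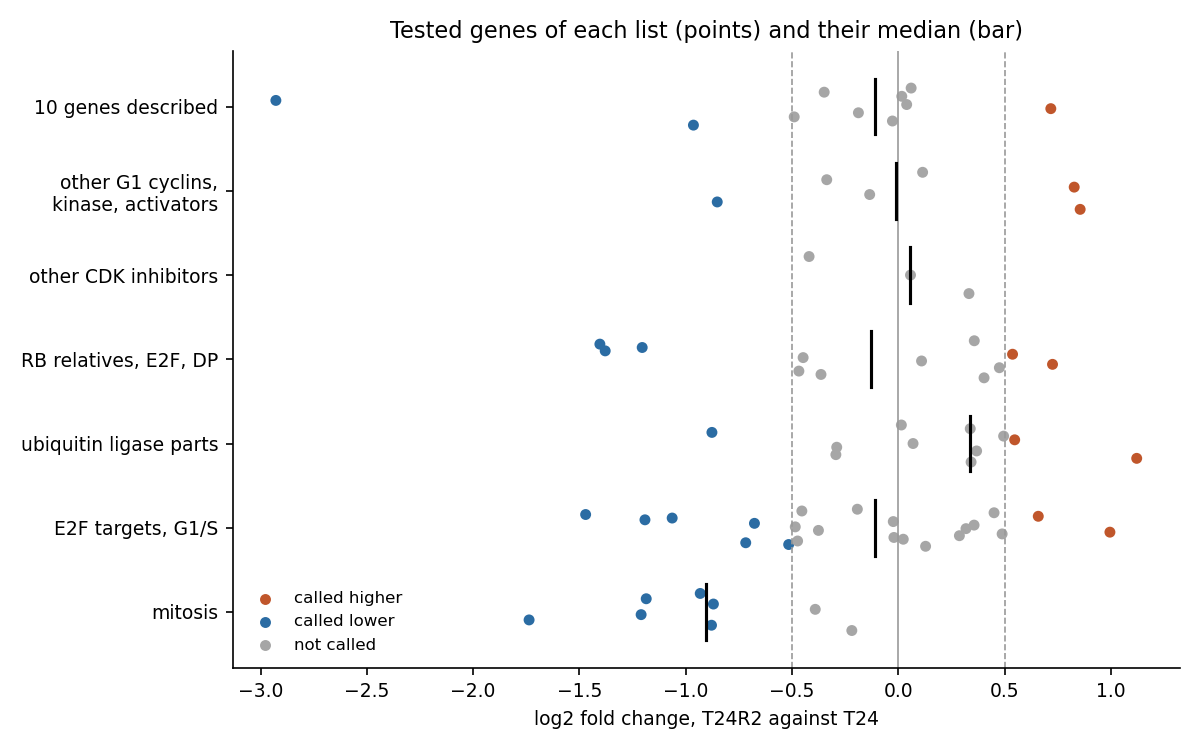
Log2 fold change, T24R2 against T24, of each tested gene (points) in the 10 genes described and in 6 lists of other genes, with the median of each list (black bar). Points are coloured where called, dashed lines mark the fold minimum of 0.5, and the median runs from -0.91 for the mitotic genes to 0.34 for the ubiquitin ligase parts.

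The genes next to each of the 10 were read to see whether a difference was shared along the chromosome. Around CDK6 it was, since FAM133B on its lower side rose (log2 fold change 0.76) and SAMD9 on its higher side rose (1.54). Within 5 Mb on each side of CDK6, 46 genes were tested, 76.1% were called and their median log2 fold change was 0.96, above that of CDK6 itself, against 0.19 for chromosome 7 as a whole. Copy number was not measured, and its part in the CDK6 value was not tested.

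Around CDKN1A, SRSF3 had a log2 fold change of 0.36 and CPNE5 one of 2.50, and the median within 5 Mb was 0.05 over 114 genes, so its neighbours did not share the fall. For CCND1, the nearest tested gene at lower coordinates, ENSG00000260877, rose (1.01), FADD at higher coordinates had -0.48, and the median was -0.24 within 5 Mb (206 genes) and -0.55 over chromosome 11. Next to RB1, ITM2B fell (-0.90) and ENSG00000275202 fell (-0.70), with a median of 0.01 over 59 genes. MTAP, beside CDKN2A, fell (-0.74), and DMRTA1, beyond CDKN2B, fell (-1.50), with a median of 0.10 over the 26 genes of that window.

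Of the remaining genes, CDKN1B had flanking genes called in opposite directions. Next to CDK4, CYP27B1 fell (log2 fold change -2.15) and AGAP2 had -0.44. Next to CDKN1B, CREBL2 rose (0.52) and APOLD1 fell (-0.81 on the log2 scale). The neighbours of CCND3, BYSL and TAF8, had 0.36 and 0.23, and DPY19L4, next to CCNE2, had 0.47, all under the fold minimum.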

How the data were processed

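RNA was sequenced from 10 libraries, 5 of T24 and 5 of T24R2. The authors aligned reads to hg38 with STAR 2.7.0, removed multimapping and duplicate reads with SAMtools 1.10, and deposited raw counts per gene of GENCODE release 39, made by featureCounts 2.0.1 with its strand option at 1. Each library has its own table, replicates were not pooled, and 0 rows lacked a gene identifier. Symbols were found for 61415 of 61533 genes.

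Counts were compared in R 4.3.3 with edgeR 4.0.16 (filterByExpr, TMM, glmQLFit and glmQLFTest) across 16181 genes, after the script had been tested on simulated data. CPM used TMM-scaled library sizes. The biological coefficient of variation was 6.61%. A gene with 3 counts or fewer in a library was treated as at the floor, which covers counting error only. Single levels and shares were compared with exact two-sided permutation tests, and 95% intervals used the standard error and degrees of freedom of edgeR. Levels per kb used the union of exons in the tables.

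The 10 genes and the lists were chosen with earlier results of these data known. Named genes are the 10, the 3 smallest adjusted p among called genes of each list, the nearest tested gene on each side, opposite-strand genes and the nearest profiles, and others are declared where named. Part of what this rule covers is not reported here. E2F letters were part of the plan. Alternatives were other scalings, count filters and fold minimums, limma-voom (limma 3.58.1), DESeq2 1.42.0 with and without shrinkage, a replicate block, removal of opposite-strand counts, and each library left out. The same alternatives for the lists and their genes were added after seeing the data. No library pair was a duplicate deposit, since counts of replicates differed by 2.01 to 7.2 times the sampling variance.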

Additional observations from a re-analysis of the deposited data

Results flagged for a closer look

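T24R2 replicate 1 stood apart from the other libraries of its line in 2 of the 10 genes. Its CDK4 level was 131.9 CPM, above 115.1 to 118.9 CPM in the others, a gap of 0.778 of the whole range. Its RB1 level was 96.98 CPM, below 115.7 to 121.9 CPM in the others, a gap of 0.753 of the range. The critical value for 5 libraries is 0.71, and among the 20 groups examined chance would give 1.0 such library. The same library had the lowest CDK6 level of its line, 105.1 CPM, and the highest CDKN1A level, 15.3 CPM. Without it, the log2 fold change of RB1 was 0.10, still under the fold minimum. The cause was not tested.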

How the results depend on the processing

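The call of CDKN1A as lower held at each fold minimum run, whereas CCND1 and CDK6 lost theirs with a minimum of 1. With that minimum, 0 of the 10 genes were higher and 1, CDKN1A, was lower, and over all genes 1918 were higher and 2293 lower. With no minimum, 1 of the 10 was higher and 5 were lower, and over all genes 6128 were higher and 6084 lower. Requiring a mean of at least 100 counts gave 2350 genes higher and 2641 lower, since fewer genes were tested (10686). Without scaling, 5206 genes were higher and 3431 lower, against 4027 and 4282.

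Leaving out each library in turn gave 2 to 3 of the 10 lower, -2.996 to -2.865 for CDKN1A, -0.98 to -0.94 for CCND1 and 0.67 to 0.76 for CDK6 (log2 fold change). Signs turned only for small values. CCND3 was 0.14 without scaling and 0.046 with upper-quartile scaling, settings that moved the median of all tested genes from 0.015 to 0.177 and to 0.088. It was 0.002 among genes with at least 100 counts, and ran from -0.065 to 0.011 with a library left out. CDK4 was 0.10 with opposite-strand counts taken off. CDKN1B ran from -0.017 to 0.054 and CDKN2B from -0.021 to 0.135 with a library left out. The cause was not tested.

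The replicate block gave 3979 genes higher and 4261 lower, with 1 and 2 of the 10 and -2.93 for CDKN1A, and changed no call of the 10. Libraries of the same number were not paired, with correlations of -0.02 to 0.02, and only replicate 2 matched its own number best. Each of the 5 shares kept its direction under the alternatives run, though without length scaling the CDK6 share rose by 15.2 points, against 8.24, and with opposite-strand counts taken off the CDKN2A share differed by -8.29 points, against -4.45. Depth was lowest for CDKN1A in T24R2, with 121 to 167 counts per library, and for CCNE2, with 153 to 217 in T24R2 and 180 to 240 in T24.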
